A study of Mus musculus with 2 samples.

Results

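The axon guidance genes Nrp1, Nrp2, Plxna1, Plxna3, Efna5, Epha5, Robo2, Sema3f, Unc5b and Dcc were followed by symbol through single-cell RNA-seq of the mouse olfactory epithelium, as 10 of the 32534 features counted. One library came from a 9-week-old female that was hemizygous for the transgene of the line Tg(Or8a1-OR1A1,-MAPT/mCherry)D736Feins/J, which carries the odorant receptor OR1A1 and an mCherry reporter. The other came from an 8-week-old wild-type female whose strain is labelled as a cross of 10G4-V2.2-#7/Jax with Bl6/129SF1/J. Each genotype was thus 1 animal and 1 library, and the 2 animals also differed in strain label and by 1 week of age, which cannot be told apart from genotype. The feature 1A1_tg was taken as the transgene, and had no UMI in the 1117 wild-type cells. Another added feature, 10G4, shares its name with the wild-type strain label and was counted in both, at 5.59 and 8.77 CPM of all transgenic and all wild-type cells; no source used here says what it measures. The libraries held 70572741 transgenic and 55701219 wild-type unique molecular identifiers (UMIs, each standing for 1 captured transcript). Cell calling left 1745 transgenic and 1117 wild-type cells, with medians of 14440 and 12983 UMIs, and 1 cell barcode was common to both libraries. Cell classes were rebuilt by clustering with guidance genes left out and named from marker genes, so each name means "like" that type.

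Olfactory sensory neurons arise throughout life from globose basal cells (GBC) by way of immediate neuronal precursors (INP) and immature, Gap43-expressing neurons. Each mature neuron uses one odorant receptor gene, and the axons of neurons with the same receptor meet at fixed glomeruli of the olfactory bulb. Neuropilins bind secreted semaphorins and signal together with plexins. Ephrins are membrane-bound ligands of Eph receptors, Robo receptors bind Slits, and Dcc and Unc5 receptors bind netrins. In the mouse olfactory system Nrp2 and Robo2 are known for sorting axons along the dorsal to ventral axis, Nrp1 and Plxna1 for the anterior to posterior axis, and Epha5 and Efna5 for local sorting that follows neuronal activity.

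The start-site windows of 4 of the 5 genes that differed between ventral-type and dorsal-type neurons below are shown first, from 250 bases before to 50 after the annotated start, to place these genes on the genome. The sequences are from RefSeq in GRCm38.p6, another build than the GRCm39 named for the counts. Of the 10 genes, 7 had an entry there. Capitals mark the single TAATTA, a core of homeodomain sites.
Nrp2, chr1:62703067-62703366, plus strand: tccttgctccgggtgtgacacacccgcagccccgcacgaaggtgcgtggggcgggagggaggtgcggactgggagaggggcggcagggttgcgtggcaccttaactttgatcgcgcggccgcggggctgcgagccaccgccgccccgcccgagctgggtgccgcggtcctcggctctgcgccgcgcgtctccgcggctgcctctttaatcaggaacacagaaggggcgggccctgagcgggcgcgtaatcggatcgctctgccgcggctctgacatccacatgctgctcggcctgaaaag
Robo2, chr16:75447244-75447543, minus strand, 1 of 3 starts listed: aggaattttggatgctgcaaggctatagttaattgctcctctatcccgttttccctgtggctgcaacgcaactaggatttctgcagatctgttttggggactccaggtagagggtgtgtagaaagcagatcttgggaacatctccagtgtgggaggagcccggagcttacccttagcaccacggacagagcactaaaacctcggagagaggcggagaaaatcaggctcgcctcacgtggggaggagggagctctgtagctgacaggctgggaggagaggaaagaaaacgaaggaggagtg
Efna5, chr17:62881268-62881567, minus strand: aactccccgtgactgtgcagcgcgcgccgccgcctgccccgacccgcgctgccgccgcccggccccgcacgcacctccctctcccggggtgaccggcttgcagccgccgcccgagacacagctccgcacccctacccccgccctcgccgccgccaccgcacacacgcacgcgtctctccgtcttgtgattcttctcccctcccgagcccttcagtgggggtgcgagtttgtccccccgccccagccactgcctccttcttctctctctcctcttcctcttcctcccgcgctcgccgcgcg
Epha5, chr5:84417333-84417632, minus strand: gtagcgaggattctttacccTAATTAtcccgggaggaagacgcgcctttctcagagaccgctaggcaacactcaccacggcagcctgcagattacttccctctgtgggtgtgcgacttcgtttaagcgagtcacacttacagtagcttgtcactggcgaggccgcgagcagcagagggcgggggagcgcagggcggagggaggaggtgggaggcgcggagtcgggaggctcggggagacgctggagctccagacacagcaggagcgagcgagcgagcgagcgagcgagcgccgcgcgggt
The windows of Nrp2, Efna5 and Epha5 held 37, 38 and 30 CpG dinucleotides, more than 94.4%, 95% and 88.3% of the 32851 windows in the table, and the Robo2 window shown held 9, more than 54.2%. On either strand, TAATTA occurred in 5.29% of all windows and, among the 7 genes, in that of Epha5. The letters TTGGC, the core of NFI sites found in 46.7% of all windows, occurred in 1 other Robo2 start and in no other window of these genes. The full palindromic NFI site (0.0365% of windows) and the O/E site of Ebf factors (0.904%) were not found in them. These are matches of letters and not measured sites.

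Along the lineage the genes followed separate courses, described here by CPM (UMIs of the gene per 1000000 UMIs of the class), because stages are clusters of the same cells and no test applies. The transgenic library held 53 GBC-like, 69 INP-like, 272 immature-like and 709 mature-like cells, and the wild-type library 7, 16, 64 and 456. Immature cells formed 3 clusters led by Tex15, by Gap43 with Scart1, and by Calb2 with Ovch2, given in that order between INP and mature cells. They held 61, 123 and 88 transgenic and 9, 36 and 19 wild-type cells, so the early wild-type values rest on few cells.

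The neuropilins peaked early. Nrp1, the receptor for Sema3a-type ligands, stood at 7.91, 10.8, 228, 202, 72.7 and 54.0 CPM from GBC through INP and the 3 immature clusters to mature cells of the transgenic library. In the wild-type library it was not counted in GBC or INP cells and stood at 80.0, 97.8, 71.5 and 28.9 CPM from the Tex15-led cluster on. Both libraries thus held little Nrp1 before the immature stage, with the highest levels in the first 2 immature clusters. Nrp2, the receptor for Sema3f-type ligands, was present one step earlier, at 6.60, 236, 386, 195, 123 and 102 CPM in the transgenic series. The wild-type series of Nrp2 ran 0, 326, 493, 397, 246 and 147 CPM, again highest in the Tex15-led cluster.

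Plxna1 and Plxna3, the plexins among the 10, followed the opposite course. Plxna1, a signalling partner of neuropilins, stood at 15.2, 10.8, 9.75, 82.8, 106 and 121 CPM in the transgenic series and at 8.38, 12.9, 6.66, 81.5, 117 and 168 CPM in the wild-type one. Plxna3, a partner of Nrp2 in Sema3f responses, ran 3.96, 1.80, 8.53, 19.1, 33.3 and 54.6 CPM in transgenic and 4.19, 3.22, 13.3, 16.3, 42.4 and 64.5 CPM in wild-type cells. In the Tex15-led cluster of both animals, Nrp2 was thus highest within its own series and both plexins were far below their mature levels. The wild-type side of this rests on few cells. Mature cells carried the highest Plxna1 and Plxna3 levels of the series. On the wider list below, Plxnb2 was 2-fold or more lower and Plxna4 higher in mature than immature cells of each library.

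Epha5, an ephrin-A receptor, had the largest ratio of mature over immature cells among the 10. It stood at 31.0, 52.3, 8.53, 44.2, 274 and 971 CPM in the transgenic series and at 50.3, 12.9, 13.3, 61.6, 207 and 749 CPM in the wild-type one. A UMI of Epha5 was found in 99% of mature cells of the transgenic library and 94.3% of those of the wild-type library, and in 9.30% and 4.44% of macrophage- or monocyte-like cells, at median depths of 14165 and 12505 against 9292.5 and 11009.5 UMIs. Efna5, the ephrin-A5 ligand, had an early high in the Tex15-led cluster instead, with 21.1, 27.1, 175, 35.1, 35.4 and 59.0 CPM in the transgenic series. Its wild-type series of 8.38, 35.5, 127, 105, 82.1 and 189 CPM was also high in that cluster but was highest in mature cells, so the later part of the course differed between the 2 animals.

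Robo2, a Slit receptor, was present from the INP stage on, with its highest transgenic level in the Tex15-led cluster. Its transgenic series was 27.7, 184, 320, 183, 199.9 and 212 CPM and its wild-type series 41.9, 171, 199.9, 159, 252 and 230.3 CPM. Unc5b, a netrin receptor, was lowest in INP and Tex15-led cells and highest in mature ones, with 28.4, 2.71, 7.31, 25.1, 77.5 and 113 CPM in transgenic and 29.3, 0, 0, 27.2, 90.03 and 98.0 CPM in wild-type cells. Dcc, the other netrin receptor, was nearly absent after the earliest immature stage: 9, 17, 16, 3, 0 and 2 UMIs in the transgenic series and 2, 6, 0, 0, 0 and 0 in the wild-type one. Sema3f, the only semaphorin ligand of the 10, was sparse throughout, at 19.8 and 21.0 CPM in GBC cells of the transgenic and wild-type libraries against 4.96 and 11.6 CPM in mature cells. The mature values of Sema3f did not exceed those of free RNA, taken from barcodes under 100 UMIs, which were 11.2 and 12.1 CPM.

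**Figure D1:**
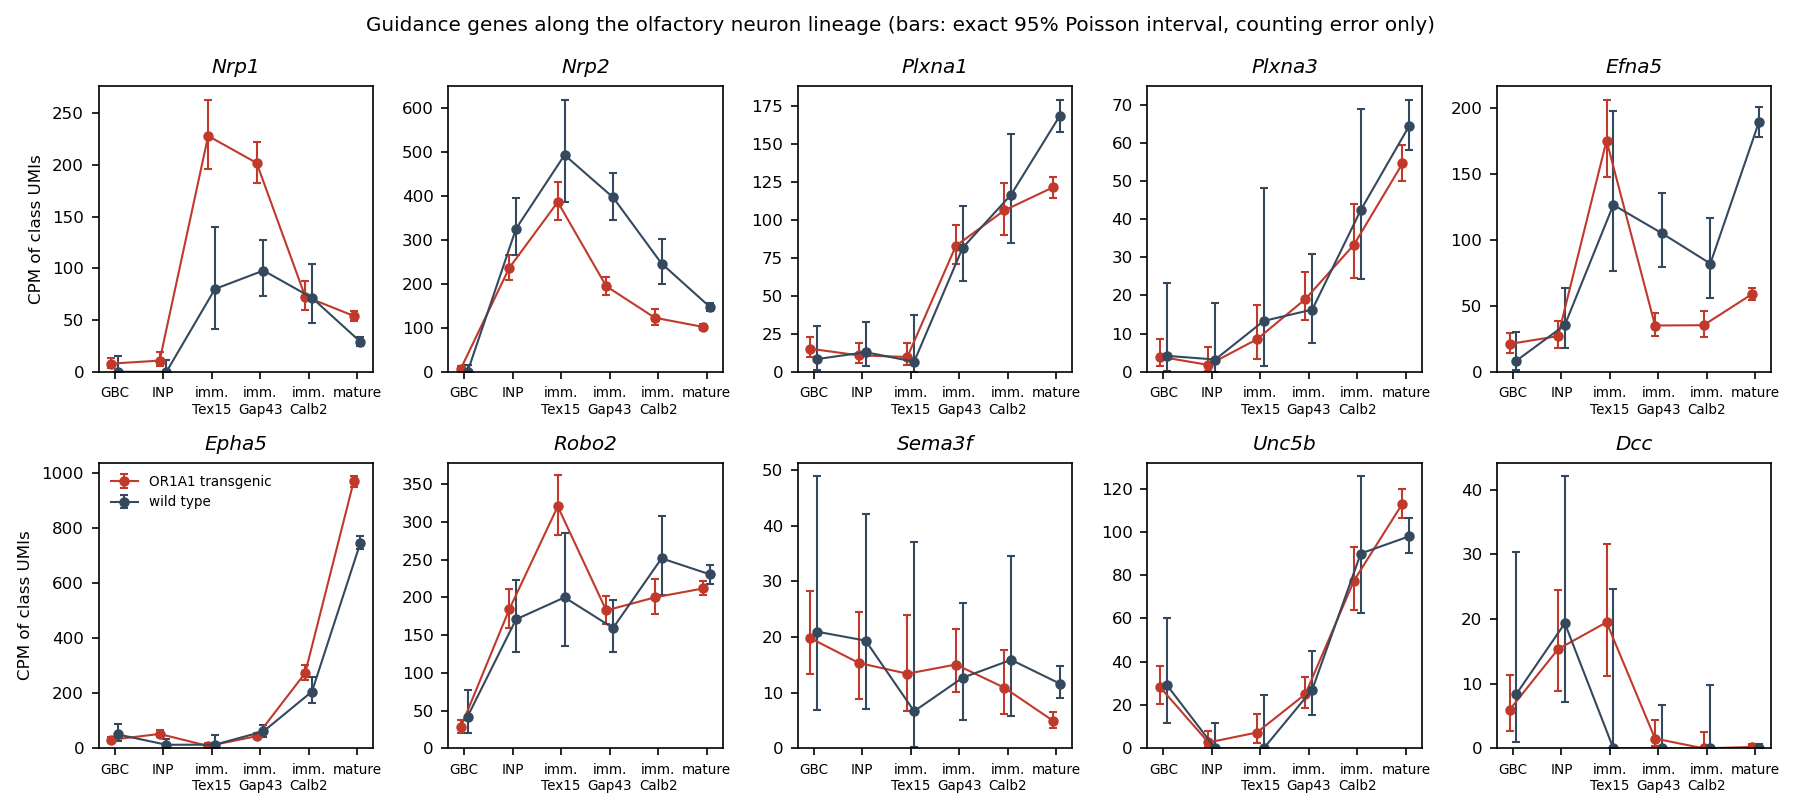
Level of each of the 10 genes (CPM of the class's UMIs) along the lineage from GBC to mature neurons, 1 line per library, with bars for the exact 95% Poisson interval, which covers counting error only. Nrp1 is highest in the first 2 immature clusters and Nrp2 in the Tex15-led one, and Epha5 reaches 971 CPM in transgenic against 749 CPM in wild-type mature cells.

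Set against all immature cells, mature cells held 3 of the 8 genes measured in both libraries at 2-fold or more higher levels in each, namely Plxna3, Epha5 and Unc5b, where 6.83% of the 6606 genes measured were. Nrp1 and Nrp2 were at least 2-fold lower in mature cells of each library, as 6.31% of genes were. A gene counted as measured with 20 CPM and 50 UMIs in either class. The log2 ratios of mature over immature cells were -1.59 in transgenic and -1.58 in wild-type cells for Nrp1, -1.02 and -1.28 for Nrp2, and 3.06 and 2.81 for Epha5. Those of Unc5b were 1.5 and 1.08, of Plxna3 1.30 and 1.32, and of Plxna1 0.66 and 1.00. Robo2 was nearly level at -0.02 and 0.22, while Efna5 was level in transgenic cells, at -0.08, and higher in wild-type mature cells, at 0.91. The median over all measured genes was -0.14 and -0.05. The cells counted as immature differ between clustering settings, and the Epha5 ratio ranged over the alternatives from 2.26 to 4.59 in transgenic and from 1.58 to 4.08 in wild-type cells.

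Between INP and immature cells more of these genes were higher than lower. Of the 6 measured in both libraries, Nrp1, Plxna1, Efna5 and Epha5 were at least 2-fold higher in immature cells of each, against 18.2% of 4223 genes, and none was 2-fold lower, against 4.0%. Nrp1 stood at a log2 ratio of 3.79 in transgenic cells. In the wild-type library no Nrp1 UMI was counted in INP cells, and its immature level was at least 8.91-fold higher than the 3 UMIs that a count of 0 allows. Wild-type Unc5b was likewise at least 4.69-fold higher than that floor. The ratios of Plxna1 were 2.72 and 2.39, those of Efna5 1.16 and 1.38 and those of Epha5 1.13 and 2.72. Nrp2 and Robo2 were nearly level, at -0.20 and 0.12 and at 0.22 and 0.19.

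Within a wider list of 94 guidance genes, 36 were measured in both libraries between mature and immature cells. In each library 7 were at least 2-fold higher in mature cells, namely the 3 above and Sema7a, Plxna4, Epha7 and Srgap2. Another 8 were lower: beside the neuropilins these were Plxnb2, Gipc1, Dpysl3, Dpysl5, Crmp1 and Fyn. Of all measured genes 6.83% were higher and 6.31% lower by that much. Srgap2, a GTPase-activating protein that binds Robo receptors, had log2 ratios of 2.68 and 2.38, and Epha7, another ephrin-A receptor, 2.29 and 1.70. On the lower side Dpysl3, a collapsin response mediator of growth cones, was at 23.4 and 13.3 CPM in mature cells of the transgenic and wild-type libraries against 972 and 970 CPM in their immature cells; it and Crmp1 are among the markers that named the immature class. Ephb2 and Sema6d were lower too but were not measured in both libraries, so they lie outside that count. Ephb2, an ephrin-B receptor, was at 0.298 and 0 CPM in mature cells against 22.2 and 13.9 CPM in immature ones. The transmembrane semaphorin Sema6d had log2 ratios of -2.31 and -3.58. Between immature and INP cells, 7 of 23 measured guidance genes were higher and 3 were lower in each library, against 18.2% and 4.0% of all genes. Sema3a, a ligand of Nrp1, was among the lower ones at -2.26 and -2.75, as Nrp1 itself was among the higher. The growth-cone gene Dpysl5 was also lower, at -1.31 and -1.49. Dscam, a netrin-binding adhesion molecule, had 4.12 and 3.59 and the ligand Efna4 -2.24 and -2.95. Dscam and Efna4 were not measured in both libraries and so lie outside these counts.

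Mature neurons were next divided into ventral-type and dorsal-type cells, in the study's tissue a proxy for position in the epithelium that was read from 2 marker genes each. Cells with at least 1000 CPM of Omp, the marker of maturity, were ventral-type where Ncam2 plus Nfix reached 2 UMIs and more than 2 times Nqo1 plus Acsm4, and dorsal-type in the reverse case. This gave 385 ventral-type and 286 dorsal-type cells of 703 in the transgenic library and 273 and 170 of 456 in the wild-type library. The 4 marker genes were left out of the test. UMIs were summed by animal and type, and ventral-type over dorsal-type sums were tested within animal by edgeR's quasi-likelihood test over 7384 genes with Benjamini-Hochberg adjustment. The test rests on 2 animals and 1 residual degree of freedom per gene. Each SE below was derived from the test statistic, whose variance is moderated across genes. It does not measure the spread between the 2 animals. Of the 8 guidance genes that passed the filter on low counts 5 differed, 2 higher and 3 lower in ventral-type cells, where 11.9% of all genes were called, 6.8% as higher and 5.15% as lower. The median log2 ratio over all genes tested was 0.005.

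Nrp2 had the largest difference of the 8. It stood at 136 CPM in ventral-type against 44.7 CPM in dorsal-type cells of the transgenic library, and at 211 against 24.5 CPM in the wild-type library. The dorsal-type levels were near those of free RNA, 35.9 and 29.0 CPM in the transgenic and wild-type libraries. In neither library did the Poisson intervals of the types overlap, with ventral-type cells high in both. The log2 ratio was 2.14 ± 0.26 (SE, n = 2 animals, edgeR adjusted p = 0.000962). It was 1.60 within the transgenic animal and 3.08 within the wild-type one, and this gap was not tested. An Nrp2 UMI was present in 61.3% of ventral-type against 29.4% of dorsal-type transgenic cells and in 75.8% against 16.5% of wild-type cells, with 12.5% and 2.53% in transgenic and wild-type neutrophil-like cells. Median depths were 14847 and 13355 UMIs in transgenic ventral-type and dorsal-type cells, 13720 and 10965.5 in wild-type ones and 8358.5 and 12259 in the neutrophil-like cells. The same shares after thinning every cell to 7900 UMIs were 47.4% against 21.5% and 63.3% against 14.5%, so the split was present at equal depth too.

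Robo2 went the other way. Its levels were 162 CPM in ventral-type against 277 CPM in dorsal-type transgenic cells and 151 against 380.1 CPM in wild-type cells. Its log2 ratio was -1.06 ± 0.12 (SE, n = 2 animals, edgeR adjusted p = 0.000703). The wild-type ventral-type and dorsal-type levels lay farther apart than the transgenic ones, at log2 ratios of -1.33 and -0.77 by animal. The median wild-type cell had 111.9 CPM of Robo2 among ventral-type and 349.8 CPM among dorsal-type cells, so the middle of the cells differed as the sums did.

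The ephrin pair split in opposite directions. Epha5 was higher in ventral-type cells, at 1061 against 829.8 CPM in the transgenic library and, in the wild-type one, 881 against 505 CPM (log2 ratio 0.54 ± 0.11 SE, n = 2 animals, edgeR adjusted p = 0.0117). Its ligand Efna5 was lower there, at 50.8 against 71.8 CPM in transgenic and 159 against 249 CPM in wild-type cells (log2 ratio -0.61 ± 0.09 SE, n = 2 animals, edgeR adjusted p = 0.00246). DESeq2 in place of edgeR gave Epha5 an adjusted p of 0.0751 at a log2 ratio of 0.55. The transgenic dorsal-type levels include cells with the transgene. Dorsal-type cells without a counted 1A1_tg UMI held Efna5 at 105 CPM and Epha5 at 685 CPM.

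Unc5b was lower in ventral-type cells, at 85.9 against 141 CPM in the transgenic library and, in the wild-type one, 85.3 against 126 CPM (log2 ratio -0.67 ± 0.09 SE, n = 2 animals, edgeR adjusted p = 0.00166). Among transgenic cells without a counted 1A1_tg UMI the levels were 67.1 CPM in ventral-type and 69.4 CPM in dorsal-type cells, and with only such cells in the fit the log2 ratio was -0.38 (edgeR adjusted p = 0.232).

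Plxna1 did not pass, at a log2 ratio of -0.34 ± 0.13 (SE, n = 2 animals, edgeR adjusted p = 0.158). It stood at 121 against 123 CPM in ventral-type and dorsal-type cells of the transgenic library and 142 against 219 CPM in the wild-type one, where alone the intervals were apart. It passed with no filter, with the single markers Ncam2 and Nqo1 and with a minimum of 2000 UMIs per cell (edgeR adjusted p = 0.0145, 0.0256 and 0.0223). Nrp1 and Plxna3 had log2 ratios of 0.10 ± 0.13 and 0.01 ± 0.15 (SE, n = 2 animals, edgeR adjusted p = 0.754 and 0.975). Sema3f, at 4.56 and 9.80 CPM in transgenic and wild-type ventral-type cells, and Dcc, with 1 transgenic UMI in each type, were under the filter.

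**Figure D2:**
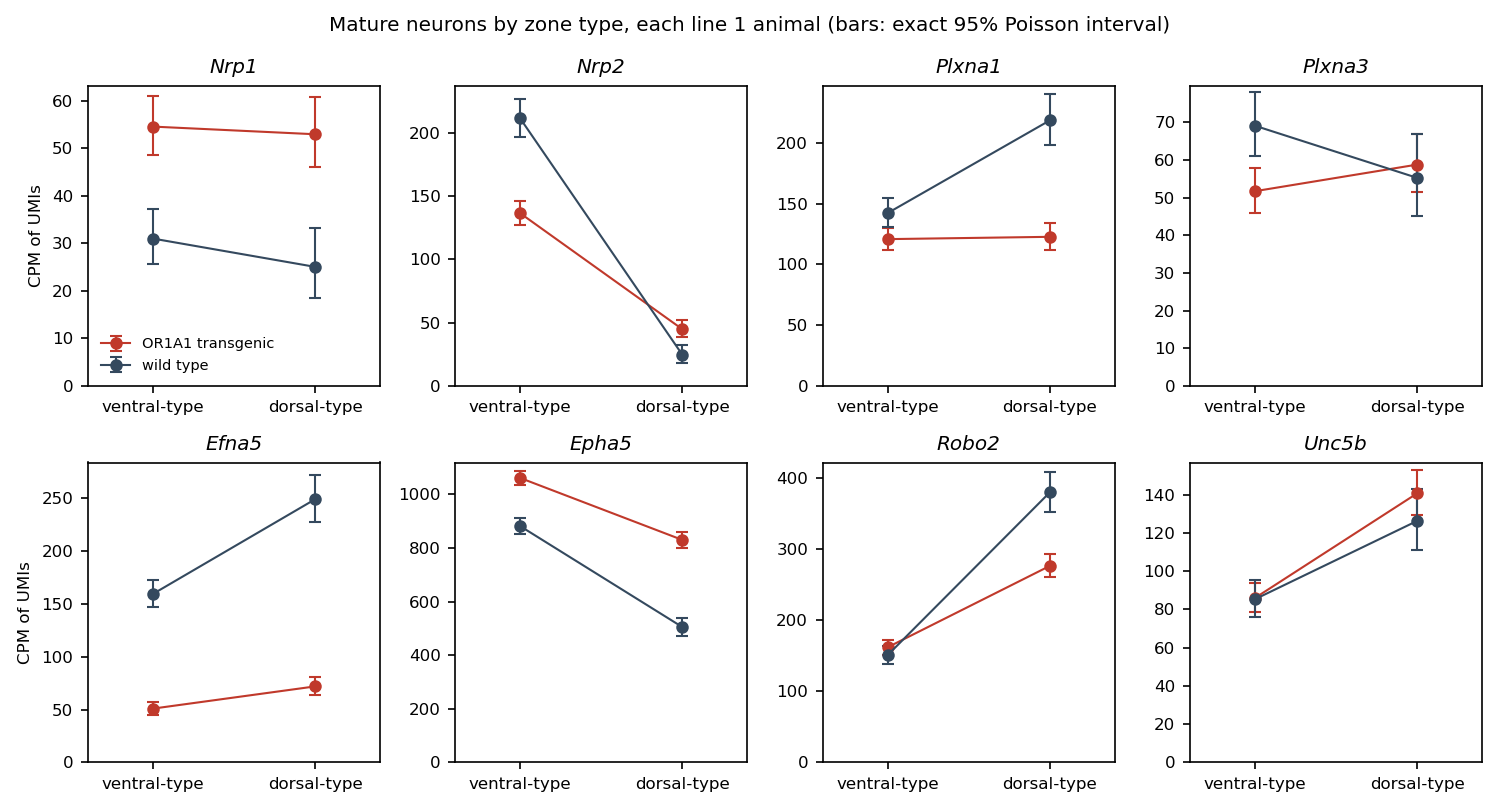
Level of 8 guidance genes (CPM of UMIs) in ventral-type and dorsal-type mature neurons, 1 line per animal, with bars for the exact 95% Poisson interval. The lines of Nrp2 slope down and those of Robo2 slope up from ventral-type to dorsal-type cells in both animals.

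Some limits belong with these values. Without the animal as a block, none of the 8 genes passed an adjusted p of 0.05 in edgeR, and 3 had an unadjusted p under 0.05. A mature cluster led by Avp, which still held Gap43 at 384.5 CPM in transgenic against 322 CPM in wild-type cells, made up 26.2% of ventral-type and 13.99% of dorsal-type transgenic cells and 14.3% and 8.82% of wild-type ones. Without it the log2 ratios of Nrp2 were 1.59 within the transgenic and 3.15 within the wild-type animal, those of Robo2 -0.77 and -1.29, of Epha5 0.46 and 0.75, of Efna5 -0.45 and -0.55 and of Unc5b -0.74 and -0.60. Sustentacular markers, the main RNA of neighbouring support cells, summed to 99.6 CPM in ventral-type and 98.7 CPM in dorsal-type transgenic cells and to 56.7 and 53.7 CPM in wild-type cells, with 8 of 8 and 7 of 8 markers counted. Endothelial markers, from cells that carry both neuropilins, summed to 28.2 and 19.4 CPM in transgenic and 20.1 and 11.0 CPM in wild-type ventral-type and dorsal-type cells, and their part in the result was not tested.

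Of the 36 listed guidance genes tested, 11 differed between ventral-type and dorsal-type cells by the same fit, 5 higher and 6 lower in ventral-type cells, where 11.9% of all genes were called. DESeq2 called 1 as higher and 6 as lower, and without the animal as a block edgeR called none, with 5 at an unadjusted p under 0.05. Other clustering and doublet settings gave 4 higher with 8 or 9 lower. Beside the 5 above, Dpysl3 (log2 ratio 1.34, edgeR adjusted p = 0.0174), the secreted semaphorin Sema3e (1.00, edgeR adjusted p = 0.0295) and Dpysl2 (0.36, edgeR adjusted p = 0.0305) were higher. Plxna4, a receptor subunit for Sema3a (-0.66, edgeR adjusted p = 0.000557), the ephrin Efna3 (-0.63, edgeR adjusted p = 0.000784) and Srgap1 (-0.35, edgeR adjusted p = 0.0173) were lower. Dpysl3 is a marker of the immature class. Without the Avp-led cluster it stood at 12.6 against 2.75 CPM in ventral-type and dorsal-type cells of the transgenic library and 11.2 against 4.09 CPM in the wild-type one, from 7 to 50 UMIs each. In DESeq2 the adjusted p was 0.0677 for Dpysl3, 0.0954 for Sema3e and 0.188 for Dpysl2. Both ephrin-A ligands that passed, Efna3 and Efna5, were thus lower in ventral-type cells.

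Within single mature cells, Efna5 and Epha5 counts ran against each other in both animals. Transgenic cells with 0, 1, 2 to 3 and 4 or more Efna5 UMIs (385, 166, 125 and 27 cells) had Epha5 at 1119, 923, 750.0 and 533 CPM. The matching wild-type cells (121, 99, 116 and 120) had 1123, 924, 614 and 429 CPM. Cells with most Efna5 thus carried the lowest Epha5 levels in both animals, though they were also the deeper cells, with a median of 17184 against 13451 UMIs in transgenic and 14102 against 11441 in wild-type cells. Across cells the Spearman correlation was -0.298 in 703 transgenic and -0.502 in 456 wild-type cells, and -0.181 and -0.511 with cells thinned to equal depth. It was also negative within ventral-type cells (-0.273 and -0.487) and within dorsal-type cells (-0.311 and -0.434). With thinned cells these became -0.118 and -0.499 in ventral-type and -0.235 and -0.441 in dorsal-type cells. These are descriptions over cells of 1 library each, which share depth and receptor identity.

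Nrp1 and Plxna1 also ran against each other. Transgenic cells with 0, 1, 2 to 3 and 4 or more Nrp1 UMIs (453, 103, 109 and 38 cells) had Plxna1 at 139.5, 83.7, 103 and 80.2 CPM, and wild-type cells (366, 47, 33 and 10) at 191, 100.1, 54.7 and 38.7 CPM. The correlations were -0.187 in transgenic and -0.309 in wild-type cells, and -0.127 and -0.235 after thinning. Nrp2 and Robo2, the pair that divides the types, had correlations of -0.103 and -0.393 over all cells, -0.102 and -0.205 within ventral-type cells and 0.084 and -0.002 within dorsal-type cells. Nrp1 and Nrp2 were nearly unrelated, at 0.041 and 0.061. Other pairs had positive correlations in both libraries. Plxna1 and Robo2 were at 0.217 and 0.391 (0.183 and 0.301 after thinning), Nrp1 and Plxna3 at 0.133 and 0.099, and Unc5b and Robo2 at 0.11 and 0.07. Nrp1 was at 0.025 and 0.263 with Epha5 and at -0.003 and -0.237 with Efna5, and Nrp2 and Sema3f at 0.022 and -0.088.

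Cells were then summed by the receptor gene with most UMIs in each cell, at 3 or more UMIs, a grouping chosen after these values had been seen. Receptors that led at least 5 cells over both libraries were 32 odorant receptor genes and the transgene. Over the 20 odorant receptor genes that led at least 2 cells in each library, a set chosen without that minimum of 5 (59 transgenic and 55 wild-type cells), the levels of the 2 animals lined up for some genes. The Spearman correlation between the libraries was 0.768 for Robo2, 0.735 for Epha5, 0.716 for Nrp1 and 0.625 for Nrp2. It was 0.495 for Efna5, 0.487 for Plxna1 and 0.442 for Plxna3, and 0.133 for Sema3f and 0.042 for Unc5b. The points are few cells each and share their library, so these are descriptions.

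Examples of single receptors, chosen after their values were seen, are given by library where both libraries had cells. The 11 cells led by Olfr1507, all ventral-type, held Nrp2 at 563 CPM in 7 transgenic cells and 293 CPM in 4 wild-type cells, with Robo2 at 21.1 CPM in the transgenic cells and not counted in the others. The 5 ventral-type cells led by Olfr449 held Epha5 at 1693 CPM in 3 transgenic cells and 1607 CPM in 2 wild-type cells, with no UMI of Efna5 or Plxna1 in either. In the 6 dorsal-type cells led by Olfr672, Plxna1 stood at 607 and 348 CPM in 2 transgenic and 4 wild-type cells, and no Nrp1 UMI was counted. These receptors thus had the same gene high in both animals, on few cells. Others rested on 1 library. The dorsal-type cells led by Olfr1030 held Robo2 at 425 and 815 CPM in 4 transgenic and 2 wild-type cells, but Nrp1 at 204.5 CPM against 1 UMI, or 51.0 CPM. Cells led by Olfr77 had Efna5 at 116 CPM and Epha5 at 465.5 CPM in 1 transgenic cell, and 552 and 62.7 CPM in 7 wild-type cells. Cells led by Olfr19 had Efna5 at 90.1 and 501 CPM in 2 transgenic and 4 wild-type cells, with Epha5 at 180.1 and 109 CPM. Sums of Efna5 over both libraries thus depend on each library's share of the cells.

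**Figure D3:**
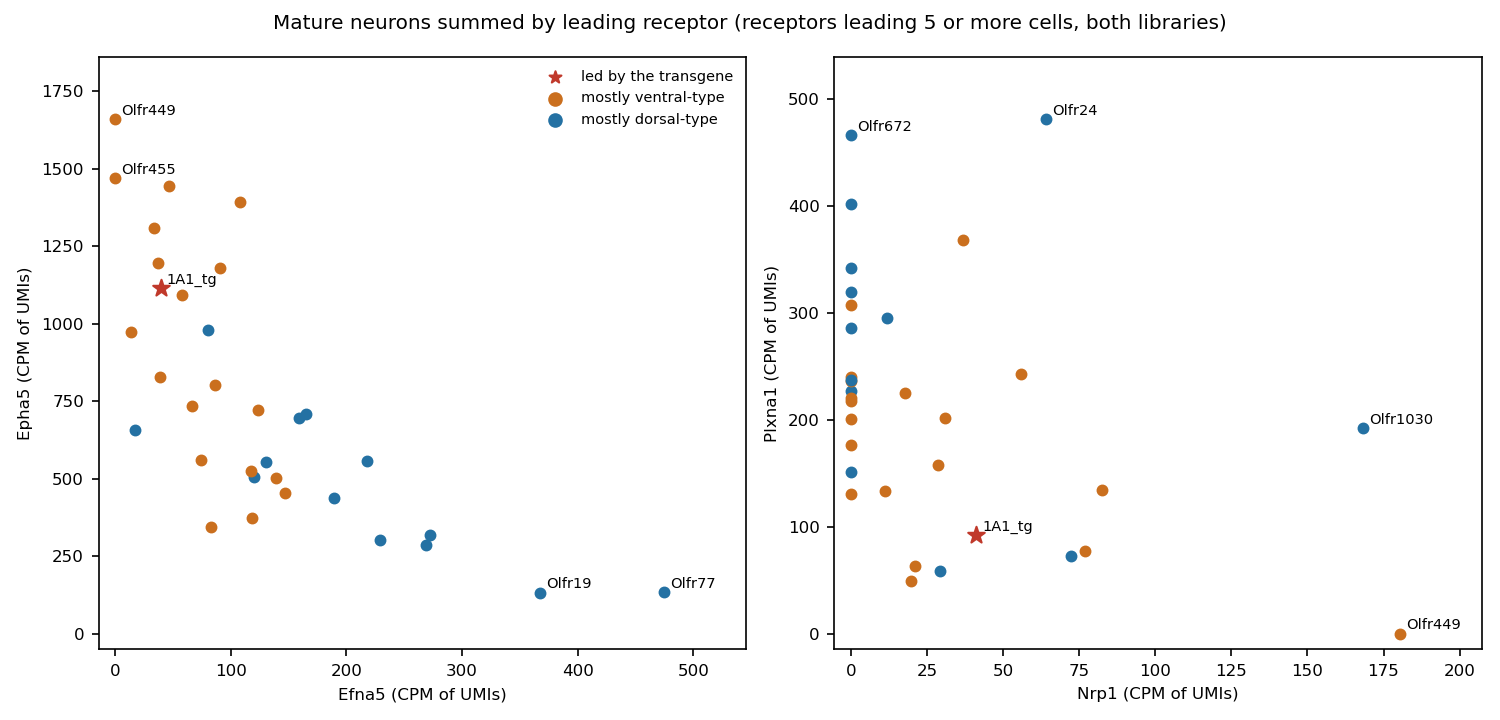
Levels (CPM of UMIs) of Epha5 against Efna5 (left) and of Plxna1 against Nrp1 (right) in mature neurons summed by leading receptor, 1 point per receptor with at least 5 cells over both libraries, coloured by the type of most of its cells. Epha5 is highest at 1661 CPM in Olfr449 cells, which had no Efna5 UMI, and lowest at 132 and 134 CPM in Olfr19 and Olfr77 cells, most of them wild-type, which held Efna5 at 367 and 475 CPM.

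In the transgenic library the transgene count went with Unc5b above all. Mature cells with 0, 1 to 2, 3 to 9 and 10 or more 1A1_tg UMIs (367, 136, 93 and 107 cells) held Unc5b at 68.5, 86.7, 179 and 242 CPM. Each step was upward, and the intervals of the 3 to 9 and 10 or more groups lay above those of the lower groups. Depth did not follow this order, with medians of 14365, 15100, 12176 and 13939 UMIs. Between cells with 3 or more 1A1_tg UMIs and cells with none, Unc5b alone of the 8 measured genes differed 2-fold or more, with a log2 ratio of 1.64, where 1.04% of 6899 genes were higher and 3.12% lower by that much. All these cells came from 1 animal, so no test was made. The share of dorsal-type cells in these groups was 31.9%, 35.3%, 62.4% and 58.9%, yet within dorsal-type cells Unc5b was 69.4, 104, 199 and 263 CPM and within ventral-type cells 67.1, 75.4, 148 and 188 CPM. After thinning, a Unc5b UMI was found in 38.5%, 40.8%, 69.4% and 79.8% of the cells of the 4 groups, against 1.16% of unthinned macrophage- or monocyte-like cells of that library, which had a median of 9292.5 UMIs.

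Efna5 followed the transgene count downward in dorsal-type cells. Within dorsal-type cells it stood at 105, 74.5, 41.3 and 29.7 CPM over the 4 groups, a log2 ratio of -1.57 for 3 or more UMIs over 0, whereas within ventral-type cells it stood at 49.7, 47.4, 53.2 and 64.7 CPM, a ratio of 0.28. The difference between the types was not tested. Epha5 in dorsal-type cells ran 685, 715, 976 and 1088 CPM, up to the ventral-type range of 1043 to 1154 CPM. Robo2 in dorsal-type cells ran 239.8, 262, 293 and 347 CPM. Nrp2 in ventral-type cells was 129.9, 124, 109 and 232 CPM, high only in the group with most transgene, which held 34 cells. Nqo1, one of the dorsal markers, was itself lower in the upper groups of dorsal-type cells, at 1003, 1082, 455 and 241 CPM, so the dorsal-type cells with most transgene are not alike in marker level to those without it.

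Cells led by the transgene were also set beside cells led by an endogenous receptor. Leading takes 3 or more UMIs, so these are largely the same cells as in the groups above, and the values are not a separate line of support. In 155 transgene-led cells Unc5b stood at 232 CPM, against 78.2 CPM in 506 receptor-led cells of the same library, and was found in 87.7% against 53.4% of cells. Robo2 was at 284 against 189 CPM, Epha5 at 1115 against 942 CPM, Plxna1 at 92.0 against 130.0 CPM and Efna5 at 39.3 against 65.4 CPM. In dorsal-type cells alone (96 and 171 cells) Unc5b was at 253 against 88.6 CPM and Efna5 at 26.9 against 95.5 CPM.

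**Figure D4:**
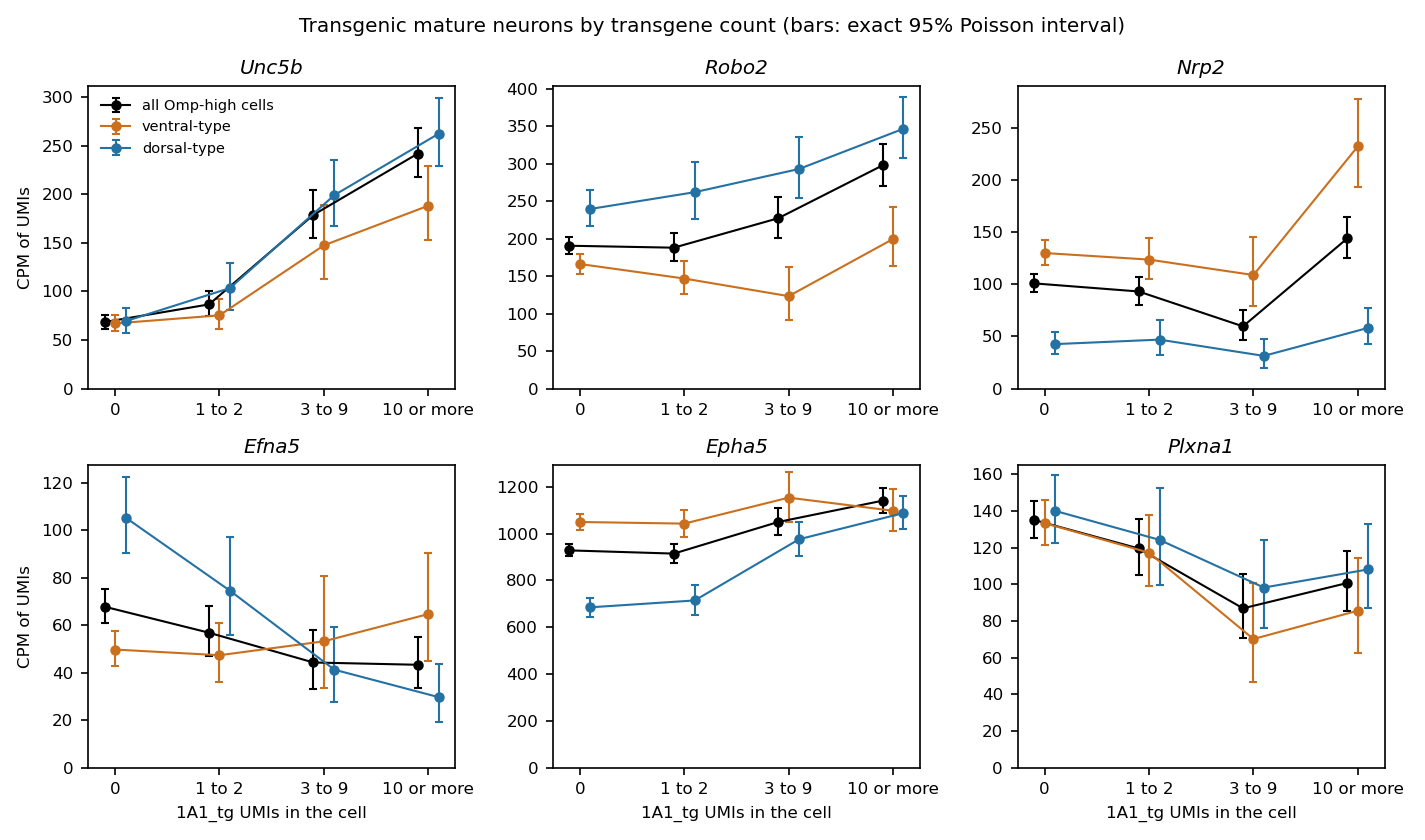
Level of 6 guidance genes (CPM of UMIs) in transgenic mature neurons by the number of 1A1_tg UMIs in the cell, for all cells and for ventral-type and dorsal-type cells, with bars for the exact 95% Poisson interval. Unc5b is higher at each step, reaching 242 CPM over all cells, and Efna5 is lower at each step in dorsal-type cells and not in ventral-type ones.

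Between the 2 animals, mature cells differed most in Efna5. It stood at 59.0 CPM in transgenic against 189 CPM in wild-type mature cells, a log2 ratio of -1.68 (95% counting interval -1.83 to -1.54). With 1 library per genotype this compares 2 animals and was not tested. Efna5 alone of the 8 measured genes was 2-fold apart, against 1.61% of 7080 genes higher and 3.12% lower by that much. The ratio was similar in all 3 mature clusters, where Efna5 was 58.7, 57.3 and 62.1 CPM in transgenic and 206, 154 and 168 CPM in wild-type cells. It was -1.64 in ventral-type and -1.79 in dorsal-type cells, and -1.48 when only transgenic cells without a 1A1_tg UMI were set against wild-type cells, a comparison in which 2.14% of genes were higher and 2.9% lower. Nrp1 was higher, at 54.0 against 28.9 CPM, a log2 ratio of 0.90 (0.65 to 1.16), although the wild-type level was near that of free RNA, 26.4 CPM. Nrp2 was at -0.53 over all mature cells, but its sign differed between the types, at -0.63 (-0.78 to -0.49) in ventral-type and 0.85 (0.40 to 1.36) in dorsal-type cells, a difference that was not tested. Its dorsal-type levels were near those of free RNA, 35.9 CPM in the transgenic and 29.0 CPM in the wild-type library. Plxna1 was lower at -0.47 and Plxna3 at -0.24, while Epha5 was higher at 0.38 and Unc5b at 0.20, and Robo2 was at -0.12. Unc5b had the opposite sign, at -0.52, in transgenic cells without a 1A1_tg UMI.

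In immature cells 0 of the 8 measured genes were 2-fold apart between the animals, against 1.74% of 6961 genes higher and 0.905% lower. The log2 ratios of Nrp1 were 1.4, 1.02 and -0.01 in the Tex15-led, Gap43-led and Calb2-led clusters (95% counting intervals 0.67 to 2.49, 0.63 to 1.48 and -0.60 to 0.69). Nrp2 was lower at -0.37, -1.03 and -1.01. Efna5 was 0.41 in the Tex15-led cluster but -1.58 and -1.23 in the later 2, with the first on 9 wild-type cells and an interval of -0.22 to 1.24. These differences between clusters were not tested.

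Outside the neuronal lineage each gene had its own set of cells, and some of these levels were above those in neurons. Endothelial-like cells (70 transgenic and 88 wild-type) held Nrp1, a co-receptor for VEGF, at 434 and 510.1 CPM, with a UMI in 88.6% and 86.4% of cells at median depths of 11770.5 and 9367.5 UMIs. In transgenic tuft-type cells, with a median of 7365 UMIs, that share was 2.5%. Omp, a measure of neuronal RNA, was 38.1 and 59.6 CPM in the endothelial-like cells. They also held Sema3f at 79.4 and 91.4 CPM and Unc5b, known from vascular sprouting, at 35.7 and 66.1 CPM. Among the 3 endothelial clusters, the one led by Ccl21a and Mmrn1 with Flt4 and Prox1 stood apart, with Nrp2 at 1325 CPM in its 4 transgenic and 2097 CPM in its 8 wild-type cells and no Nrp1 UMI in either. In the largest endothelial cluster Nrp1 was at 402 and 545 CPM and Nrp2 at 135 and 184 CPM. The Ccl21a-led cluster thus held Nrp2 without counted Nrp1 in both animals, on few cells, while the largest cluster held both as a sum over its cells. At clustering resolution 2, 23 cells formed a cluster named pericyte or smooth muscle, a name no cluster had at the resolution used here. The endothelial-like class may thus hold such cells, and their part in its levels was not tested.

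Fibroblast-like cells (84 and 44) held Nrp2 at 267 CPM in transgenic against 349.8 CPM in wild-type cells, Nrp1 at 103 and 203 CPM and Robo2 at 141 and 168 CPM. Macrophage- or monocyte-like cells held Nrp1 at 199 and 91.7 CPM. This gap went with their make-up: 77 transgenic and 31 wild-type cells lay in the C1qa-led cluster, where Nrp1 was at 216 and 233 CPM, and 9 and 59 in the Ccr2-led cluster, where it was at 75.9 and 33.2 CPM. Horizontal basal cell-like cells, the reserve stem cells, held Sema3f at 51.6 and 82.1 CPM, Efna5 at 37.6 and 42.8 CPM and Unc5b at 28.0 and 41.0 CPM, with Robo2 at 0 and 6.84 CPM.

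Epha5 was also present in 2 kinds of microvillar cells. Ionocyte-type cells (45 and 13) held it at 317 CPM in transgenic against 291 CPM in wild-type cells, with a UMI in 88.9% and 84.6% of cells, and tuft-type cells (40 and 23) at 183 and 129 CPM. Omp in the ionocyte-type cells was 366 and 986.5 CPM, so neuronal RNA was present too, and its part in the Epha5 level was not tested. The levels of Epha5 in sustentacular-like cells, 109 and 73.4 CPM, came with Omp at 612 and 1001 CPM, and those in erythroid-like cells, 539 and 85.5 CPM, with Omp at 3307 and 663 CPM. The erythroid-like class of 71 cells had the glial marker Fabp7 among its leading genes. At clustering resolution 0.5, 27 cells had that name and 18 cells were named olfactory ensheathing or Schwann glia. The class may thus hold cells of other types, and its levels cannot be read as those of erythroid cells alone. Free RNA held Epha5 at 98.5 and 51.1 CPM and Omp at 1201 and 912 CPM. Dcc had 6 transgenic and 9 wild-type UMIs over all non-neuronal classes.

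**Figure D5:**
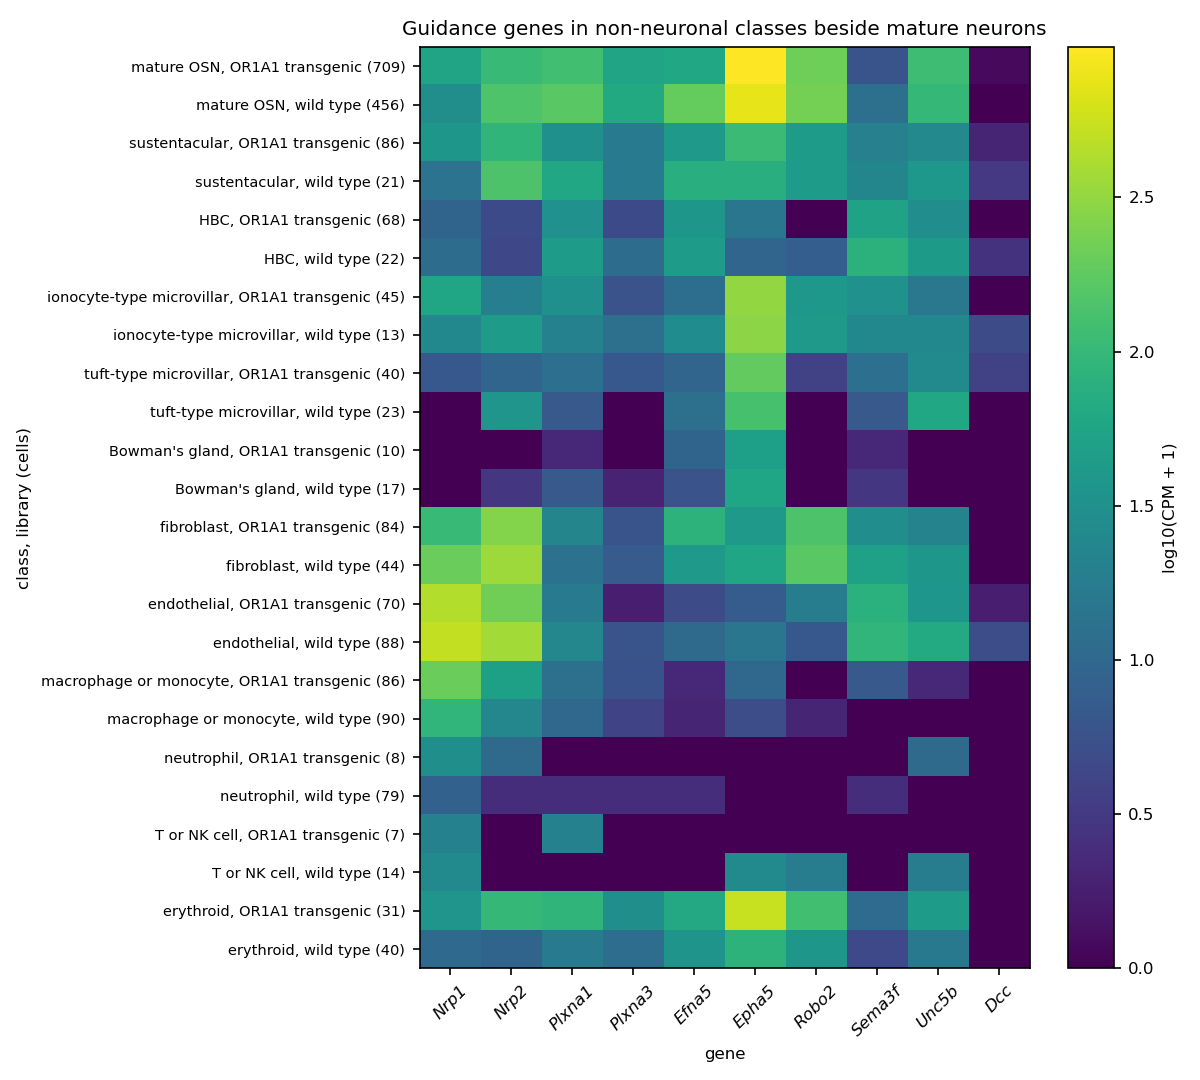
Level of the 10 genes, as log10 of CPM plus 1, in 11 non-neuronal classes and in mature neurons, transgenic above wild type for each class, with the number of cells in brackets. Nrp1 is high in endothelial, fibroblast and macrophage or monocyte classes, Nrp2 in endothelial and fibroblast classes, and Epha5 in ionocyte-type and tuft-type microvillar cells. The erythroid class may also hold cells of other types.

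The genes whose levels followed a member most closely were taken over 22 sums of class by library with at least 20 cells each, by Pearson correlation of log2 of CPM plus 5. For Nrp1 these were Mfap3 (0.903), St6galnac4 (0.866) and Arhgap31 (0.848). For Nrp2 they included Nav1 (0.859) and Cnrip1 (0.823), and for Robo2 they were Clip3 (0.964), Mturn (0.935) and Cacna2d1 (0.929). The sums share libraries and lineages, and the correlations are descriptions.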

How the data were processed

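Olfactory epithelium of 1 transgenic and 1 wild-type mouse was dissociated and profiled with 10x Genomics 3′ v3.1 chemistry, as the labels' protocols state. The matrices the authors deposited hold unfiltered raw counts of UMIs. The submitters' processing notes name Cell Ranger 6.1.1 and GRCm39 (mm39), while the file headers name Cell Ranger 4. The 3′ counts depend on transcript ends and are not per length, so levels are not compared between genes. The sources used here do not give the sequence behind 1A1_tg.

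Barcodes with at least 5827.5 transgenic or 5317.7 wild-type UMIs, 500 genes and at most 10% mitochondrial UMIs were kept. Scrublet removed 4 and 2 doublets, too few to show that it worked, so an alternative left out the 5% with the highest scores. Both libraries were clustered together (scanpy 1.11.5, 2000 variable genes, 30 components, 15 neighbours, Leiden resolution 1, 28 clusters) without guidance, receptor or transgene features, and clusters were named from fixed markers. A total of 107 transgenic and 123 wild-type cells stayed unnamed.

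Levels are UMIs per 1000000 with exact 95% Poisson intervals, ratios have 1 UMI added, and intervals cover counting error only. Ventral-type and dorsal-type sums, which pair because both come from the same animal, were tested in edgeR 4.0.16 (R 4.3.3) with the animal as a block and TMM scaling, after a check on simulated data. DESeq2 1.42.0 was an alternative. The 2 libraries per test are separate animals, 1 per genotype. The named genes are the 10, the other guidance genes with the 5 largest zone ratios or 3 largest stage ratios per direction, those called in the zone test, and the 3 genes most like Nrp1, Nrp2 and Robo2, of which 1 is not reported here. The 10 genes, the lists and the comparisons were chosen with earlier results of these data known.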

Additional observations from a re-analysis of the deposited data

Results flagged for a closer look

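Some genes differed between transgenic and wild-type animals in opposite directions in different classes, with both counting intervals off 0. These differences between classes were not tested, and each side is 1 library per genotype. The log2 ratio of Nrp1 was 0.90 in mature, 0.90 in immature and 1.11 in macrophage- or monocyte-like cells, but -0.23 in endothelial-like and -0.98 in fibroblast-like cells. The macrophage or monocyte value joins clusters of unequal share: within the C1qa-led cluster (77 transgenic and 31 wild-type cells) Nrp1 was 216 and 233 CPM. Within the Ccr2-led cluster Nrp1 was higher in transgenic cells, which were few there. The log2 ratio of Unc5b was 0.20 in mature cells and -0.87 in endothelial-like cells. That of Efna5 was -1.68 in mature and -0.70 in immature cells, but 1.03 in fibroblast-like cells.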

How the results depend on the processing

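Between ventral-type and dorsal-type cells, 5 or 6 guidance genes were called under all alternatives but 3. Without the animal as replicate block none was, with adjusted p of 0.238 for Nrp2, 0.243 for Robo2, 0.284 for Unc5b, 0.788 for Epha5 and 0.929 for Efna5. DESeq2 called 4 and the fit on cells without a 1A1_tg UMI also 4. Leaving out the transgenic or the wild-type animal left log2 ratios of 1.60 to 3.08 for Nrp2, -1.33 to -0.77 for Robo2, 0.35 to 0.80 for Epha5, -0.65 to -0.50 for Efna5, -0.71 to -0.57 for Unc5b, -0.62 to -0.02 for Plxna1, 0.04 to 0.29 for Nrp1 and -0.19 to 0.32 for Plxna3, with no test. Thinning to 7900 UMIs left 3 genes 2-fold apart between wild-type mature and immature cells in place of 5, since Nrp2, Plxna3 and Unc5b came to -0.88, 0.96 and 0.95 while Efna5 passed at 1.01. It left 2 in place of 1 between mature cells of the animals, with Nrp1 at 1.02. In immature cells of the animals, thinning, resolution 0.5, resolution 2 and the stricter doublet removal each gave 1 gene in place of 0, Nrp1, at 1.10, 1.06, 1.06 and 1.03. For the transgene, dorsal-type cells alone gave 2 genes in place of 1, with Efna5 added. Depth limits Sema3f and Dcc, and the few wild-type GBC-like and INP-like cells limit the early stages.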
